A study of Homo sapiens with 9 samples.

Results

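The members described here are the 39 genes for the aminoacyl-tRNA synthetases, the enzymes that load each tRNA with its amino acid, and for the scaffold proteins of their cytosolic complex. They were chosen by gene symbol, with no filter on their values, though earlier results of these data were known. They are among the 19930 genes with FPKM values (fragments mapped to a gene, corrected for transcript length and library size) in 9 RNA-seq libraries. The 39 comprise 20 genes for cytosolic enzymes, 16 for mitochondrial enzymes, which carry the suffix 2, and 3 for scaffolds, and all 39 were expressed above the filter of 1 FPKM on average. The libraries came from cells labelled MDA-MB-453, an established human breast cancer line, transfected with siRNA by Lipofectamine 2000 and harvested 48 h later. A control group, X453_NC, and a pair of groups labelled as Linc00673 knockdown, X453_1 and X453_2, had 3 libraries each, and the labels do not name the siRNA that each knockdown group received. All 9 libraries share the line, the reagent and the time, and the labels do not say that libraries of a group came from separate cultures, so that P values measure the spread between these libraries only.

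Each synthetase recognizes its own amino acid and the matching tRNA and joins them at the expense of ATP, which makes these enzymes the step at which the genetic code is read into chemistry. Human cells keep separate nuclear genes for the cytosolic and the mitochondrial enzyme of most amino acids, while GARS and KARS serve both compartments from a single gene, EPRS charges glutamic acid and proline within a single chain, and mitochondrial glutaminyl-tRNA is made by amidation without an enzyme of its own. Several cytosolic enzymes sit in a large complex held together by AIMP1, AIMP2 and EEF1E1. Many cytosolic synthetase genes are known targets of the transcription factor ATF4, which is produced when amino acids run short or the endoplasmic reticulum is stressed.

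Estimated depth was 25.5 to 27.3 M fragments per library in X453_NC, 24.1 to 25.4 in X453_1 and 23.4 to 24.7 in X453_2. Every control library was thus somewhat deeper than every knockdown library. Correlations of log2 values were r = 0.9945 to 0.9959 within groups and 0.9552 to 0.9903 between them. Of 7 marker genes of the labelled line, KRT8, KRT18 and EPCAM were high and ERBB2 was at 11.8 to 17.8 FPKM, but FOXA1, a transcription factor of luminal breast cells, was at 0 to 0.04 FPKM in all 9 libraries. GATA3 did not exceed 0.88 FPKM and SPDEF did not exceed 1.24 FPKM. FOXA1, GATA3 and SPDEF thus go against the labelled line, and the libraries are named below by their groups. The 7 markers summed to between 6110 and 6588 FPKM in X453_NC, 5034 and 5535 in X453_1 and 5131 and 5582 in X453_2. The 6 markers of other cells summed to between 4.1 and 4.9 FPKM in X453_NC, 6.0 and 6.5 in X453_1 and 6.1 and 7.9 in X453_2. Of these only COL1A1, a collagen gene of mesenchymal cells, reached 1 FPKM, and it was called higher in both knockdown groups, with log2 fold changes of 0.44 and 0.62. PTPRC and ESR1 were at 0 in some libraries, and the part of either list in the results below was not tested.

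The first question was how the cytosolic enzymes differed between knockdown and control cells. A gene was called when it differed at least 1.3-fold with an unadjusted P of at most 0.05 by limma on log2(FPKM + 1), fitted to all 12884 genes that averaged 1 FPKM or more. Among the 20 cytosolic synthetases, 9 fell in X453_1 (AARS, CARS, GARS, IARS, MARS, NARS, QARS, SARS and YARS) and 1 rose (VARS), where 15.6% of all tested genes were called lower and 11.1% higher. In X453_2, 12 fell (AARS, CARS, EPRS, GARS, HARS, IARS, MARS, NARS, QARS, SARS, TARS and YARS) and 1 rose (DARS), against 23.1% called lower and 11.0% called higher over all genes. The median log2 fold change of the 20 was -0.30 in X453_1 and -0.46 in X453_2, beside medians over all genes of 0.0032 and -0.10. The X453_1 and X453_2 comparisons share the 3 X453_NC libraries. As these are bulk libraries, fewer cells of a kind and less RNA per cell cannot be told apart.

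The libraries themselves separated in most of these genes. All 3 X453_1 libraries lay below all 3 X453_NC libraries for 13 of the 20 and above them for 5, where 35.1% and 35.0% of all tested genes did so. For X453_2 the numbers were 14 below and 5 above, beside 46.1% and 26.9% of all tested genes. Among all called genes, 58.3% were called lower in X453_1 and 67.8% in X453_2, and these shares became 49.4% and 48.9% after a correction for the GC content of transcripts and 55.5% and 52.1% after one for their length. After the GC correction 10 cytosolic synthetases were called lower and 1 higher in X453_1, and 10 lower and 3 higher in X453_2. After the length correction 8 were called lower and 1 higher in X453_1, and 10 lower and 2 higher in X453_2. Scaling the libraries by their median ratio left 9 lower in X453_1 and 10 in X453_2. The median of the 20 stayed negative under each of these settings, at -0.31 and -0.40 after scaling, -0.38 and -0.41 after the GC correction and -0.29 and -0.33 after the length correction.

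**Figure D1:**
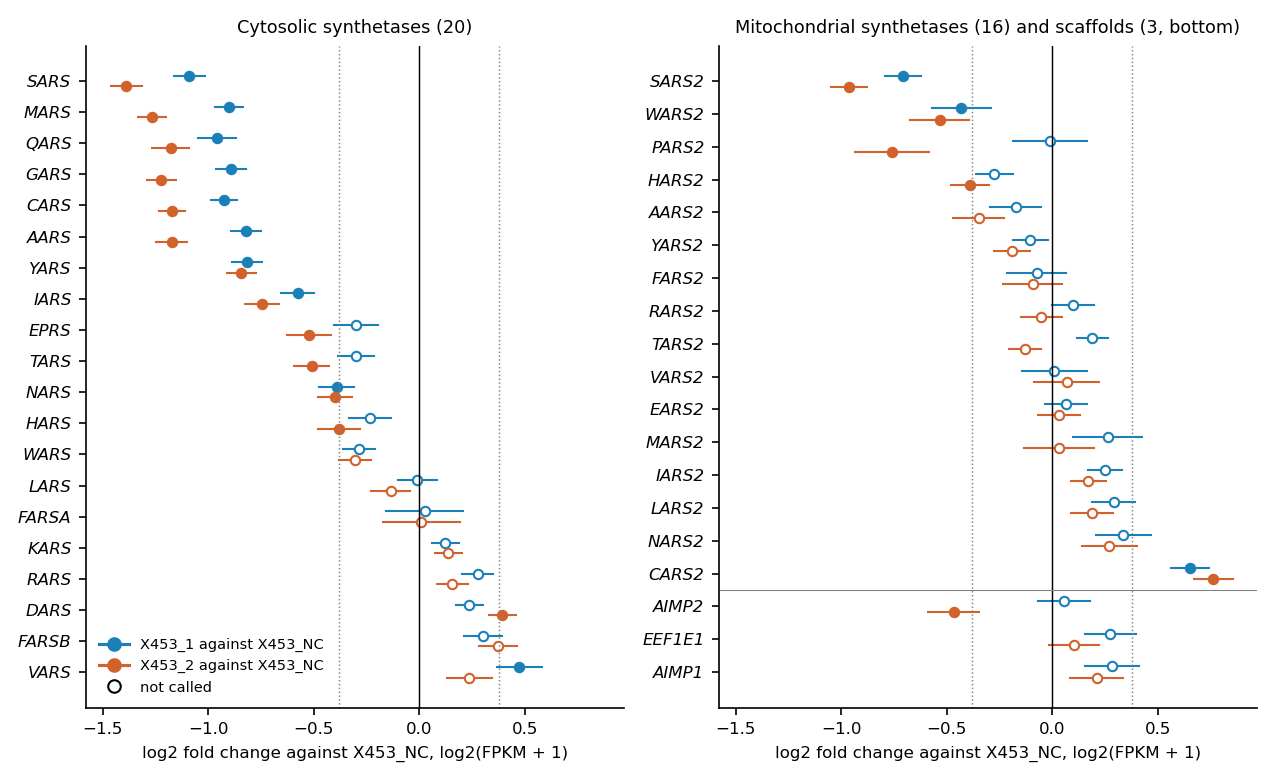
Log2 fold change of log2(FPKM + 1) against X453_NC for each of the 39 members (x axis), with 95% confidence intervals from limma as lines. Filled points were called, open points were not, and dotted lines mark the 1.3-fold limit. The cytosolic genes run from SARS, at -1.09 in X453_1 and -1.39 in X453_2, to VARS, at 0.47 and 0.24. Of the mitochondrial genes, SARS2 lies farthest to the left and CARS2 farthest to the right.

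SARS, the seryl-tRNA synthetase gene at chr1:109756515-109780804 (coordinates of members are those of the deposited table, build GRCh37), showed the largest mean change. It measured 175, 177 and 176 FPKM in X453_NC, 82.9, 84.6 and 79.2 FPKM in X453_1 and 64.6, 66.5 and 68.8 FPKM in X453_2. The 3 groups did not overlap. The mean fell by 53.3% in X453_1 and fell by 62.2% in X453_2, and the log2 fold changes were -1.09 ± 0.033 (SE, n = 3 against 3, limma adjusted P = 1.5e-08) and -1.39 (limma adjusted P = 1e-09). MARS (chr12:57881736-57910438), which charges both initiator and elongator methionine tRNA, measured 83.9, 84.1 and 84.3 FPKM in X453_NC, 43.6, 45.0 and 45.2 FPKM in X453_1 and 33.5, 34.3 and 35.3 FPKM in X453_2. Again no library of one group lay within the range of another, and the log2 fold changes were -0.90 and -1.27.

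QARS (chr3:49133365-49142562), the glutaminyl-tRNA synthetase gene, measured 79.3, 74.6 and 78.6 FPKM in X453_NC, 39.7, 40.3 and 38.2 FPKM in X453_1 and 33.7, 32.3 and 35.1 FPKM in X453_2. GARS (chr7:30634351-30673649), which supplies glycyl-tRNA synthetase to the cytosol and the mitochondria, measured 139, 143 and 142 FPKM in X453_NC, 73.0, 77.4 and 75.9 FPKM in X453_1 and 60.3, 58.1 and 61.3 FPKM in X453_2. For each of these the knockdown libraries stood below every control library. The log2 fold changes of QARS were -0.96 in X453_1 and -1.18 in X453_2, and those of GARS were -0.89 and -1.22. CARS (chr11:3022152-3078681), for cysteine, measured 108, 105 and 109 FPKM in X453_NC, 56.5, 56.2 and 55.6 FPKM in X453_1 and 46.1, 47.5 and 47.8 FPKM in X453_2. AARS (chr16:70286297-70323412), for alanine, measured 213, 217 and 219 FPKM in X453_NC, 123, 123 and 119 FPKM in X453_1 and 91.7, 94.8 and 99.2 FPKM in X453_2. The 3 groups were separate for both genes, with log2 fold changes of -0.93 and -1.17 for CARS and -0.82 and -1.17 for AARS. Limma adjusted P values of these 6 genes lay between 9e-10 and 6.7e-08 in the comparisons with X453_NC. For AARS and MARS, which the table lists with a single transcript, these FPKM stand for an estimated 7308 to 19199 and 2319 to 6471 fragments per library.

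**Figure D2:**
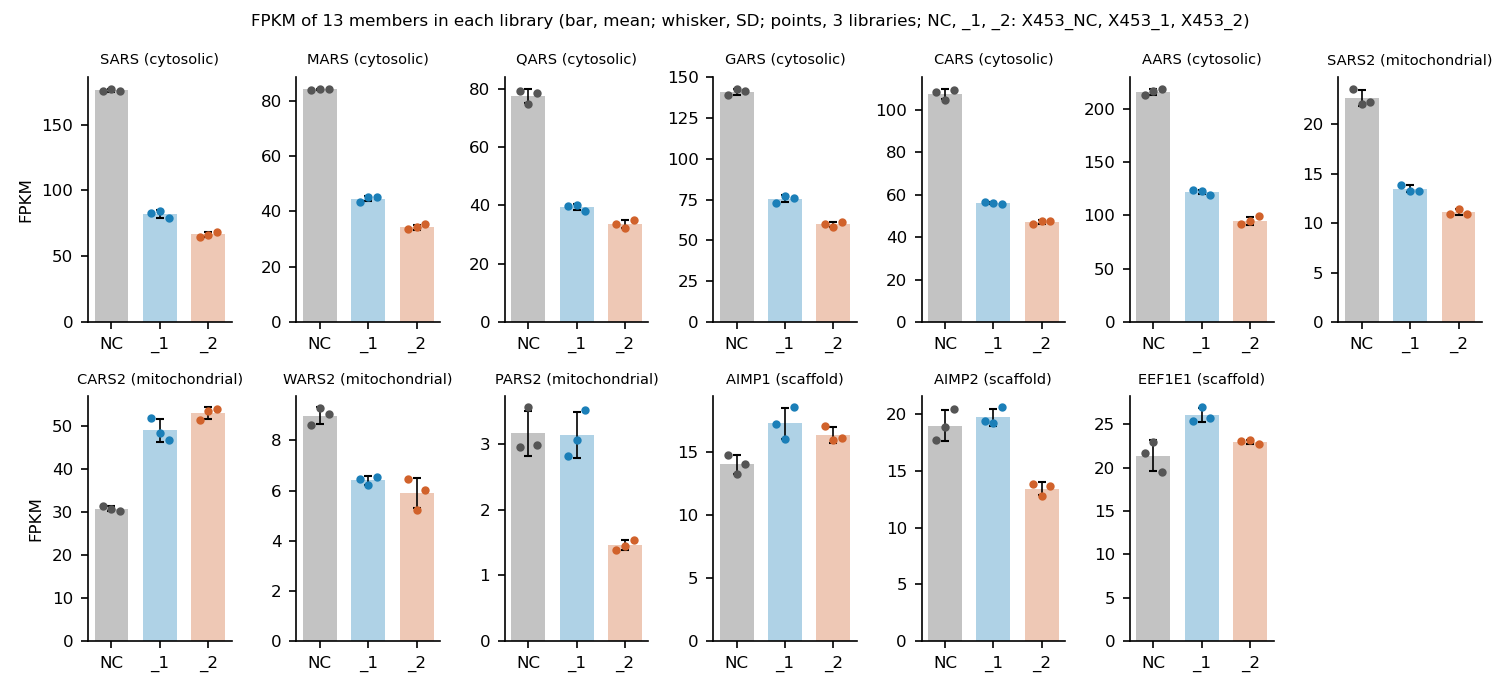
FPKM (y axis, linear from 0, 1 scale per gene) of 13 members in the 3 libraries of each group. Bars are means, whiskers SDs and points libraries. The 6 cytosolic genes fall stepwise from X453_NC over X453_1 to X453_2, CARS2 rises, and PARS2 and AIMP2 are low in X453_2 only, with X453_1 at the level of X453_NC.

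The other cytosolic genes that fell had smaller changes. YARS, for tyrosine, went from 98.6 ± 2.05 FPKM (SD, n = 3) in X453_NC to 55.6 ± 1.37 in X453_1 and 54.5 ± 1.25 in X453_2, log2 fold changes of -0.82 and -0.84, with all knockdown libraries below the controls. IARS, for isoleucine, changed by -0.58 and -0.75 on the log2 scale, and NARS, for asparagine, by -0.39 and -0.40. EPRS, HARS and TARS, for glutamic acid and proline, histidine and threonine, fell in X453_2 by log2 values of -0.52, -0.38 and -0.51, and stood at -0.30, -0.23 and -0.30 in X453_1, under the 1.3-fold limit. HARS and NARS lay close to that limit. HARS was no longer called in X453_2 without X453_NC library r0 (-0.36) or without X453_2 library r0 (-0.37) or r2 (-0.36). NARS was no longer called in X453_1 without X453_NC library r1 (-0.37), nor in X453_2 without X453_NC library r1 (-0.375) or X453_2 library r2 (-0.37), and both genes dropped below the limit in X453_2 after median ratio scaling (-0.32 and -0.34), the GC correction (-0.33 and -0.36) and the length correction (-0.25 and -0.28). NARS was also under the limit in X453_1 after the length correction (-0.36), and EPRS was called lower there after the GC correction (-0.38).

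The remaining cytosolic enzymes were not called lower in either group. KARS, the lysyl-tRNA synthetase gene and the most abundant member, stood at 285 ± 2.49 FPKM in X453_NC, 310 ± 7.76 in X453_1 and 314 ± 8.55 in X453_2 (SD, n = 3), with every knockdown library above the controls and log2 fold changes of 0.12 and 0.14 that were not called. VARS, for valine, measured 26.6, 25.6 and 27.5 FPKM in X453_NC, 36.9, 38.9 and 36.1 FPKM in X453_1 and 29.5, 32.3 and 32.9 FPKM in X453_2. It rose in X453_1 (0.47, limma adjusted P = 1.7e-05) and stood at 0.24 in X453_2, and no group overlapped another. After the GC correction it was called higher in X453_2 as well (0.51, limma adjusted P = 2.4e-08). DARS, for aspartic acid, measured 55.7, 55.5 and 55.0 FPKM in X453_NC, 65.4, 65.7 and 65.5 in X453_1 and 75.4, 72.9 and 71.0 in X453_2. It rose in X453_2 (0.39, limma adjusted P = 1.2e-06), a call lost without X453_2 library r0 (0.37), and stood at 0.24 in X453_1. RARS, for arginine, had log2 fold changes of 0.28 and 0.16, with all knockdown libraries above the controls. The paired subunits of phenylalanyl-tRNA synthetase differed from each other. FARSA stood at 29.2, 29.6 and 29.4 FPKM in X453_NC, X453_1 and X453_2, with 95% intervals of its log2 fold change from -0.16 to 0.21 and from -0.17 to 0.19, whereas FARSB stood at 31.0, 38.3 and 40.4 FPKM, with log2 fold changes of 0.30 and 0.37. FARSB lay just under the limit in X453_2, and was called higher there after median ratio scaling (0.43), the GC correction (0.43), the length correction (0.50) and with an added value of 0.1 FPKM (0.38), as well as without X453_NC library r1 (0.42) or X453_2 library r0 (0.38). WARS, for tryptophan, stood lower in all 6 knockdown libraries, at -0.29 in X453_1 (limma adjusted P = 4.7e-05) and -0.30 in X453_2 (2.4e-05) on the log2 scale, and did not reach the 1.3-fold limit. LARS, for leucine, had log2 fold changes of -0.01, with overlap, and -0.14, with all X453_2 libraries below the controls, and was not called.

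These changes narrowed the range of levels among the cytosolic enzymes below KARS. In X453_NC the order of mean levels led from KARS over AARS (216 FPKM), SARS (176 FPKM), GARS (141 FPKM), TARS (129 FPKM) and CARS (108 FPKM) down to VARS (26.6 FPKM), and 13 of the 19 pairs of neighbours in this order had libraries that did not overlap. WARS and EPRS, RARS and NARS, and the lowest 5, from HARS to VARS, did not separate from their neighbours. In X453_2 the order was KARS, AARS (95.2 FPKM), TARS (90.0 FPKM), DARS (73.1 FPKM), SARS (66.6 FPKM) and GARS (59.9 FPKM), and 8 of the 19 pairs of neighbours were apart, against 13 in X453_1 as in the controls. The 20 cytosolic genes summed to 1770, 1796 and 1778 FPKM in the X453_NC libraries, 1319, 1355 and 1334 FPKM in X453_1 and 1234, 1214 and 1222 FPKM in X453_2. The sums of the 16 mitochondrial genes were 221, 224 and 222 FPKM in X453_NC, 243, 245 and 240 FPKM in X453_1 and 229 FPKM in each X453_2 library. Thus the cytosolic sum was lower in every knockdown library, while the mitochondrial sum was higher, and the ratio of the sums went from 8.02 ± 0.012 (SD, n = 3) to 5.51 ± 0.078 in X453_1 and 5.34 ± 0.049 in X453_2. KARS and GARS, which serve both compartments from a single gene, were counted on the cytosolic side only. The higher mitochondrial sum rested on CARS2. Without this gene, left out after its values were seen, the other 15 summed to 191 ± 1.80 FPKM (SD, n = 3) in X453_NC, 194 ± 2.65 in X453_1, which overlapped the controls, and 176 ± 1.27 in X453_2, where every library lay below them. The ratio was then 9.30 ± 0.021 in X453_NC, 6.90 ± 0.019 in X453_1 and 6.95 ± 0.032 in X453_2. An exact permutation test of 3 against 3 libraries cannot give a P below 0.1, and none was used for the sums.

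**Figure D3:**
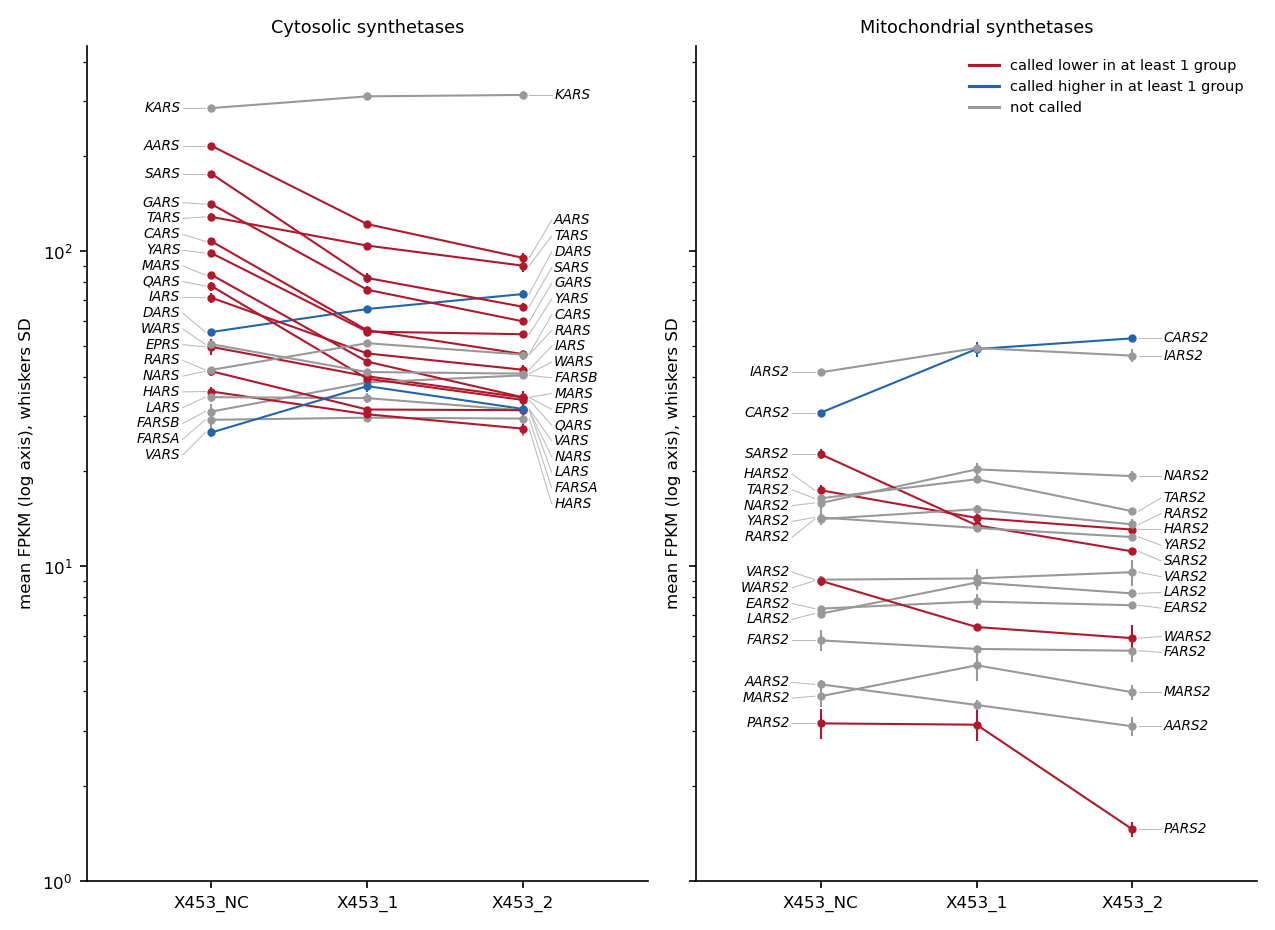
Mean FPKM (log axis) of the 20 cytosolic (left) and 16 mitochondrial (right) synthetase genes in X453_NC, X453_1 and X453_2, with SD whiskers over 3 libraries. Red lines were called lower and blue lines higher against X453_NC in at least 1 knockdown group, and grey lines were not called. Most of the abundant cytosolic genes below KARS move down toward the level of the less abundant ones, and only PARS2 falls below 3 FPKM.

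Grouped by known features, the cytosolic genes called lower were spread over the enzyme classes. The counts below stand beside 15.6% of all tested genes called lower in X453_1 and 23.1% in X453_2. Of the 8 synthetases of the multisynthetase complex, 3 fell in X453_1 and 4 in X453_2, or 37.5% and 50.0%, with medians of -0.16 and -0.33, and of the 12 outside it, 6 and 8 fell, or 50.0% and 66.7%, with medians of -0.35 and -0.46. Of 9 class I enzymes, whose catalytic domain is a Rossmann fold, 5 fell in X453_1 and 5 in X453_2, and of 10 class II enzymes 4 and 6 fell, EPRS being left out as it holds one domain of each class. The list used next came from general knowledge but was drawn up with earlier results of these data known, so it gives a description only. A further division lay along this list of 12 genes known as ATF4 targets (AARS, CARS, EPRS, GARS, IARS, LARS, MARS, NARS, SARS, TARS, WARS and YARS). Of these, 8 fell in X453_1 and 10 in X453_2 and none rose, with medians of -0.70 and -0.80. All 3 libraries lay below the controls for 11 and 12 of the 12, where 35.1% and 46.1% of all tested genes did so. Of the other 8 cytosolic genes, 1 fell in X453_1 (QARS) and 2 in X453_2 (QARS and HARS), and the medians were 0.18 and 0.15. The lists had similar GC content, with medians of 48.2% and 49.4% beside 50.3% over all tested genes that had a GC value. The signs of these medians held after GC correction, median ratio scaling and length correction, at -0.75, -0.71 and -0.69 for the 12 and 0.18, 0.17 and 0.22 for the 8 in X453_1, and at -0.75, -0.74 and -0.68 for the 12 and 0.28, 0.21 and 0.27 for the 8 in X453_2.

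Promoter sequences were examined because a short element bound by ATF4 with a C/EBP partner, written here TGATGNAA and searched on both strands, is known from amino acid response genes. RefSeq promoters (GRCh38.p14, 250 bases before to 50 after the start) were given for 33 of the 39 members, and not for DARS, LARS, VARS, YARS, AARS2 and VARS2. The letters occurred in 6 of 16 cytosolic promoters (37.5%), 1 of 14 mitochondrial promoters (YARS2) and 0 of 3 scaffold promoters, beside 3.673% of all 27305 promoters and 1.522% of the 9393 promoters of tested genes. The 6 belonged to AARS, CARS, IARS, MARS, NARS and TARS, all among the 12 known ATF4 targets, of which 10 had a promoter, and none of the 6 promoters among the other 8 cytosolic genes held it. AARS, CARS and MARS are shown as members with large changes. IARS, NARS and TARS were added after their values were seen, to show all cytosolic matches side by side. Each 50-base stretch runs 5′ to 3′ along the gene, and capitals mark the match.
AARS: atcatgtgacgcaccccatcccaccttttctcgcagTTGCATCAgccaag
CARS: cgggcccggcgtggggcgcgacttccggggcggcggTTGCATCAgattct
MARS: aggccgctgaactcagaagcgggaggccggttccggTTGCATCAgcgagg
IARS: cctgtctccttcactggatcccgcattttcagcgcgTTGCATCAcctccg
TARS: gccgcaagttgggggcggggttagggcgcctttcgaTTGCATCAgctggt
NARS: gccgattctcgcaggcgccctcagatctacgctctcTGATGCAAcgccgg

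In GRCh38.p14 these stretches lie at chr16:70289680-70289729 (AARS, minus strand), chr11:3057412-3057461 (CARS, minus), chr12:57488028-57488077 (MARS, plus), chr9:92293697-92293746 (IARS, minus), chr5:33440931-33440980 (TARS, plus) and chr18:57621809-57621858 (NARS, minus). The first base of the match was at position -187 from the start in AARS, -13 in IARS, -4 in MARS, -2 in CARS, 3 in TARS and 15 in NARS, so that all but that of AARS lay at or beside the start of transcription. All 6 held C at the free base, and the match of NARS read in the opposite orientation to the others. The genes with the letters ranged widely in the expression data, from MARS (-0.90 and -1.27) to TARS (-0.30 and -0.51), and SARS, QARS and GARS fell as far without a match in this window. A match is a description of the letters and not evidence of binding in these cells.

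The mitochondrial enzymes moved less as a set and in both directions. Of the 16, 2 fell in X453_1 (SARS2 and WARS2) and 1 rose (CARS2), and 4 fell in X453_2 (HARS2, PARS2, SARS2 and WARS2) and 1 rose (CARS2). Their median log2 fold changes were 0.04 and -0.07, near the medians over all genes of 0.0032 and -0.10, and the X453_2 median went to -0.02 after median ratio scaling and after the GC correction and turned to 0.05 after the length correction. Each of these settings left 3 genes called lower in X453_2. All 3 X453_1 libraries lay below the controls for 5 genes and above for 7, where 35.1% and 35.0% of all tested genes did so. For X453_2 the numbers were 7 below and 4 above, beside 46.1% and 26.9%. The shares called lower were near those over all genes. They were 12.5% beside 15.6% in X453_1 and 25.0% beside 23.1% in X453_2.

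SARS2 (chr19:39405904-39421536), the mitochondrial serine enzyme, measured 23.6, 22.1 and 22.3 FPKM in X453_NC, 13.9, 13.3 and 13.3 FPKM in X453_1 and 11.0, 11.5 and 11.0 FPKM in X453_2. The 3 groups did not overlap, with a log2 fold change of -0.71 in X453_1 (limma adjusted P = 3.5e-07) and -0.96 in X453_2 (2.6e-08). Its level is uncertain, since 65.6% of the windows of 100 bases in its transcripts also occur in transcripts listed for other genes, mostly AC011455.2 and MRPS12. MRPS12, which starts within its span on the other strand, stood at 0.08 and 0.07. CARS2 (chr13:111293757-111358527), which loads cysteine and also makes cysteine persulfide, measured 31.4, 30.8 and 30.1 FPKM in X453_NC, 51.8, 48.4 and 46.6 FPKM in X453_1 and 51.3, 53.5 and 53.9 FPKM in X453_2. It was the mitochondrial gene that rose, by 59.2% and 72.1%, with every knockdown library above the controls and a log2 fold change of 0.65 in X453_1 (limma adjusted P = 8.6e-07) and 0.76 in X453_2 (1.8e-07). NAXD, which overlaps CARS2 on the opposite strand, fell by log2 values of -0.43 and -0.49.

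WARS2 (chr1:119573839-119687234), for tryptophan, measured 8.61, 9.28 and 9.05 FPKM in X453_NC, 6.46, 6.22 and 6.54 FPKM in X453_1 and 6.45, 5.24 and 6.03 FPKM in X453_2. It lay lower in all 6 knockdown libraries, with log2 fold changes of -0.43 and -0.53 and overlap between the knockdown groups. PARS2 (chr1:55222571-55230226), the mitochondrial proline enzyme, measured 2.96, 3.56 and 2.98 FPKM in X453_NC, 2.82, 3.07 and 3.52 FPKM in X453_1 and 1.39, 1.45 and 1.54 FPKM in X453_2. X453_NC and X453_1 overlapped, with a log2 difference of -0.01 and a 95% interval from -0.19 to 0.17, while all X453_2 libraries were lower (-0.76, limma adjusted P = 1.5e-05), from an estimated 78 to 208 fragments per library. HARS2 starts head to head with HARS on chromosome 5 and its span overlaps that of HARS. It stood at -0.27 in X453_1 and fell in X453_2 by -0.39, beside -0.23 and -0.38 for HARS, and 7.95% of its windows and 9.98% of those of HARS are shared with other genes. The HARS2 call was lost after median ratio scaling (-0.33), the GC correction (-0.36) and the length correction (-0.29), and without X453_NC library r0 (-0.37) or r2 (-0.376). The remaining 11 genes were not called. NARS2 (0.34 and 0.27), LARS2 (0.29 and 0.19) and IARS2 (0.25 and 0.17) had every knockdown library above the controls, AARS2 (-0.17 and -0.35) and YARS2 (-0.10 and -0.19) had every one below. NARS2 was called higher in both groups after the length correction (0.39 and 0.40) and in X453_1 without X453_NC library r1 (0.40), and AARS2 was called lower in X453_2 with an added value of 0.1 FPKM (-0.43, limma adjusted P = 0.00024). TARS2 stood at 0.19 in X453_1 and -0.13 in X453_2, and MARS2 (0.26 and 0.03), RARS2 (0.10 and -0.05), VARS2, EARS2 and FARS2 (between -0.09 and 0.07) completed the set. The sign of RARS2 in X453_2 turned after scaling and after the GC and length corrections, and that of FARS2 in both groups and of PARS2 in X453_1 after the length correction.

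The balance between the compartments was then taken within each library, as log2 of (FPKM + 1) of the cytosolic enzyme minus that of the mitochondrial enzyme, for the 13 amino acids with a single gene of each. Scaling of a library does not touch this ratio except through the added value of 1. The ratio of all 3 libraries lay below the controls for 9 amino acids and above for 4 in X453_1, and below for 9 and above for 3 in X453_2, with median changes of -0.49 and -0.43. Of all tested genes taken singly, 35.1% lay below and 35.0% above in X453_1, and 46.1% and 26.9% in X453_2. No such share was taken for ratios of other gene pairs, so the counts of amino acids are a description only. Cysteine changed most. Its log2 ratio was 1.76, 1.74 and 1.83 in X453_NC, 0.12, 0.21 and 0.25 in X453_1 and -0.15, -0.17 and -0.17 in X453_2, so that the cytosolic gene exceeded the mitochondrial one in the controls, came close to it in X453_1 and lay below it in X453_2. The isoleucine ratio went from 0.75, 0.81 and 0.76 in X453_NC to between -0.06 and -0.05 in X453_1 and between -0.16 and -0.12 in X453_2. In that pair the fall of IARS and the small upward difference of IARS2 both contributed. Methionine changed by -1.16 and -1.30, alanine by -0.65 and -0.83, asparagine by -0.73 and -0.67 and tyrosine by -0.71 and -0.65. Serine changed by only -0.38 and -0.43, although SARS fell farthest, as SARS2 fell too. Threonine changed by -0.49 and -0.38 and leucine by -0.30 and -0.32. Histidine kept nearly the same ratio (0.04 and 0.01), and for valine (0.46 and 0.17), arginine (0.18 and 0.21) and tryptophan (0.14 and 0.23) the cytosolic side gained.

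**Figure D4:**
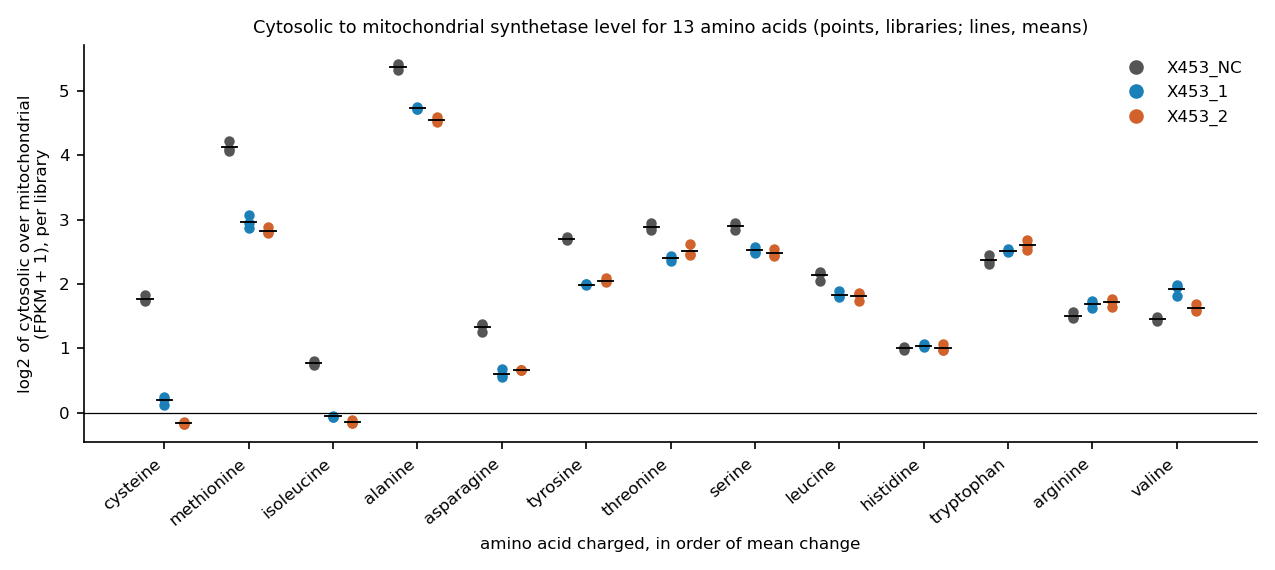
Log2 ratio of cytosolic to mitochondrial synthetase level, (FPKM + 1) in each library (y axis), for 13 amino acids in order of mean change (x axis). Points are libraries and lines are group means. Cysteine falls from 1.77 in X453_NC to 0.20 in X453_1 and -0.16 in X453_2, while valine, at the right end, rises.

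Of the scaffold genes, AIMP2 fell in X453_2, and AIMP1 and EEF1E1 were not called in either group. AIMP1, whose product also yields a secreted cytokine, measured 14.8, 13.2 and 14.1 FPKM in X453_NC, 17.2, 16.1 and 18.6 FPKM in X453_1 and 17.1, 16.0 and 16.1 FPKM in X453_2. EEF1E1 (AIMP3) measured 21.7, 23.0 and 19.5 FPKM in X453_NC, 25.4, 27.0 and 25.8 FPKM in X453_1 and 23.1, 23.2 and 22.8 FPKM in X453_2. All X453_1 libraries were above the controls for both, and neither gene was called, with log2 fold changes of 0.28 and 0.21 for AIMP1 and 0.28 and 0.10 for EEF1E1. AIMP2, the scaffold that holds the complex together, measured 17.7, 18.8 and 20.4 FPKM in X453_NC, 19.4, 19.2 and 20.6 FPKM in X453_1 and 13.9, 12.8 and 13.7 FPKM in X453_2. X453_1 overlapped the controls (0.05, 95% interval from -0.07 to 0.18), and X453_2 lay below both other groups (-0.47 against X453_NC, limma adjusted P = 3.4e-05). Of the 3 scaffolds, 0 were thus called by limma in X453_1, where 2 had an unadjusted P of at most 0.05, and 1 in X453_2. Windows shared with other genes made up 29.52% of AIMP2, mostly with EIF2AK1 on the opposite strand, 14.47% of EEF1E1, with its readthrough to BLOC1S5, and 7.47% of AIMP1. EIF2AK1 itself stood at -0.16 and -0.31, and was not called.

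The knockdown groups were also compared with each other. Of the 39 members, PARS2 (log2 difference of X453_2 minus X453_1 -0.75, 95% interval from -0.92 to -0.57) and AIMP2 (-0.52, from -0.64 to -0.40) were called lower in X453_2, each with a limma adjusted P of 0.00011, and none was called higher, beside 5.45% of all tested genes called lower and 2.19% called higher. All 3 X453_2 libraries lay below those of X453_1 for 13 of the 20 cytosolic genes and above for 2, and below for 9 and above for 0 of the 16 mitochondrial genes, where 40.6% and 13.1% of all tested genes did so. The median log2 difference was -0.16 over the cytosolic and -0.10 over the mitochondrial genes, and -0.08 over all genes. The cytosolic median shrank to -0.089 after median ratio scaling, -0.054 after the GC correction and -0.071 after the length correction, and the mitochondrial one to -0.042, -0.006 and 0.011. The largest differences among cytosolic genes were those of MARS (-0.37), AARS (-0.35), GARS (-0.33) and SARS (-0.30), under the 1.3-fold limit, and 14 of the 20 had an unadjusted P of at most 0.05. MARS was called without X453_1 library r0 (-0.38) or X453_2 library r2 (-0.39), and AARS without X453_2 library r2 (-0.38). Small differences here depended on the processing, as those of 13 members, NARS, WARS, YARS and FARSA among them, changed sign after the GC correction. PARS2 and AIMP2 did not.

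Other genes of tRNA biology and of the amino acid response gave the setting of these changes. Of 12 amino acid response genes, 6 fell in X453_1 and 7 in X453_2, where 1 rose (DDIT3, which encodes CHOP, at 0.80), with medians of -0.42 and -0.48. These were 50.0% called lower in X453_1 and 58.3% in X453_2, where 15.6% and 23.1% of all tested genes were. After the GC correction 4 were called lower in X453_1, and 5 lower and 2 higher in X453_2, with medians of -0.34 and -0.27. ASNS, for asparagine synthetase, fell from 162 ± 5.40 FPKM in X453_NC to 34.4 ± 0.272 in X453_1 and 28.9 ± 0.564 in X453_2 (SD, n = 3), log2 fold changes of -2.20 and -2.44. CHAC1, a glutathione-degrading enzyme, fell by -1.86 and -2.70. The mRNA of ATF4 itself was lower in every knockdown library, at -0.36 and -0.27 (limma adjusted P = 1.7e-06 and 7.9e-06). It was not called, as it lay under the 1.3-fold limit. DDIT3 lies next to MARS on chromosome 12 on the opposite strand and the spans overlap, yet the fold changes of this pair had opposite signs. Of 10 tRNA export and elongation factors, 4 fell in X453_1 and 4 in X453_2, 40.0% in each. EEF1D (-0.91 and -0.75) and EEF1A2 (-0.82 and -0.75), which belong to the machinery that brings charged tRNA to the ribosome, had the largest mean changes. Of 23 tRNA maturation enzymes, 6 fell in X453_1 (26.1%) and 9 in X453_2 (39.1%), led by QTRT1 (-0.85 and -1.03), which inserts queuosine, and TRMT61A (-0.79 and -0.74), which methylates adenine in tRNA. None of these genes of export, elongation and maturation was called higher, where 11.1% and 11.0% of all tested genes were. Some were higher under the 1.3-fold limit. All 3 X453_1 libraries lay above the controls for 2 of the 10 and 5 of the 23, beside 35.0% over all genes. Those of X453_2 did so for 1 and 2, beside 26.9%. Below the controls lay those of X453_1 for 8 and 11, beside 35.1%, and those of X453_2 for 8 and 15, beside 46.1%.

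The last lists, of 4 and 6 genes, are too short to set their few calls apart from the shares over all tested genes. These shares were 15.6% called lower and 11.1% higher in X453_1, and 23.1% and 11.0% in X453_2. Of 4 mitochondrial tRNA charging partners, GATB, GATC and QRSL1 of the amidating complex and MTFMT, which formylates the initiator methionine, 0 were called by limma in either comparison, and 0 in X453_1 and 1 in X453_2 had an unadjusted P of at most 0.05. The largest mean changes were those of QRSL1 (-0.10 and -0.19) and GATB (0.04 and 0.07). Of 6 synthetase-like and proofreading genes, 0 were called in X453_1, where 4 had an unadjusted P of at most 0.05 by limma, and 1 in X453_2. That gene was DTD2 (-0.57, and -0.27 in X453_1), which removes wrongly loaded amino acids, and TARSL2 stood at 0.26 and 0.37.

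Some members start close to a neighbour on the opposite strand, and the values of these neighbours are given beside them. DDX19B, which starts 258 bases from AARS, fell by log2 values of -0.49 and -0.49, less than AARS. TERF2IP, 50 bases from KARS, stood at 0.30 in X453_1 and rose by 0.41 in X453_2, and WDR25, 75 bases from WARS, stood at 0.33 and rose by 0.61, where WARS stood at -0.29 and -0.30. UBFD1 beside EARS2 (0.18 and 0.15), LYRM4 beside FARS2 (-0.23 and -0.25), ORC3 beside RARS2 (0.02 and -0.03) and PMS2 beside AIMP2 (-0.12 and -0.34) were not called. Both genes fell in the pair of AARS and DDX19B and, in X453_2, in that of HARS and HARS2 described above. Strand was not stated for the counting, so reads from overlapping genes on opposite strands, as for MARS and DDIT3 or CARS2 and NAXD, cannot be told apart.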

How the data were processed

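RNA-seq of 9 libraries, 3 per group, was read from 1 table in which the authors deposited FPKM per gene, rounded to 2 decimals. The submitters' notes name Bowtie2 and GRCh37.p13, and the counting tool and its use of strand are not given in the sources used here. The deposited log2 ratios, P values and Q values of group comparisons were not used, nor were 4 lines without values. Linc00673 itself and a marker gene are not reported here.

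log2(FPKM + 1) of the 12884 genes averaging 1 FPKM or more was fitted in limma 3.58.1 (R 4.3.3; eBayes with trend) with group as the only factor and all 9 libraries, and P values were adjusted by Benjamini-Hochberg over these genes. Calls used the limits of the study, a 1.3-fold difference or more and an unadjusted P of 0.05 or less. The fit was tested on simulated data. The members, lists and tests were chosen with earlier results of these data known, and the lists (complex and free enzymes, classes, ATF4 targets, amino acid response, charging partners, proofreading, export and elongation, maturation, markers) came from general knowledge. Values per library were given for the 6 cytosolic and 4 mitochondrial members with the largest mean change, the scaffolds and any member called between the knockdown groups. VARS and DARS were added after their values were seen, as the cytosolic genes that rose.

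The number of fragments per library was inferred from how low FPKM values are spaced, with 90 bases taken off transcript lengths, and speaks to counting error only. Shared windows of 100 bases came from GENCODE 29 transcripts and promoters from RefSeq. Tables were handled with pandas 2.3.3 and figures drawn with matplotlib 3.10.9 in Python 3.11.15. Alternatives were another added value, other filters and limits, adjusted P, only the groups compared, a replicate block, each library left out, median ratio scaling, and GC (known for 86.9% of tested genes and all members) and length corrections.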

Additional observations from a re-analysis of the deposited data

Results flagged for a closer look

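A pair of the 39 members was called between X453_1 and X453_2 by the test of the difference itself, a share near that over all genes. Of all tested genes, 5.45% were called lower and 2.19% higher in X453_2 than in X453_1, and 40.6% had all 3 X453_2 libraries below. PARS2 was lower in X453_2 than in X453_1 by a log2 difference of -0.747 (limma adjusted P = 0.00011), and AIMP2 by -0.521 (limma adjusted P = 0.00011), with all 3 X453_2 libraries below all 3 X453_1 libraries in each case. Both stood near X453_NC in X453_1. AIMP2 shares 29.52% of its 100-base windows with other genes and PARS2 shares none, and PARS2 rests on an estimated 78 to 208 fragments per library.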

How the results depend on the processing

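No member changed direction against its called value under any alternative, and 70 of 2331 member fold changes under alternatives gained a call while 32 lost one. The fold limit gave 55 of the gains and 13 of the losses, scaling and the GC and length corrections 7 and 10, and leaving out a library 6 and 9. With a fold limit of 1.5, calls over all genes numbered 1573 for X453_1, 2270 for X453_2 and 224 between them, and 1 and 2 mitochondrial synthetases fell. With no fold limit they numbered 8724, 9396 and 6697, and 5 and 7 mitochondrial synthetases were lower. A minimum of 5 FPKM, which tests fewer genes, gave 2211, 2714 and 547 calls. Between the knockdown groups, an added value of 0.1 FPKM gave 1656 calls and the GC correction 572, against 984, and the share called lower went from 71.3% to 49.6% after median ratio scaling and 42.7% after the GC correction; the cause was not tested.

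The replicate labels did not pair the libraries (correlations of deviations between -0.239 and 0.104), and a replicate block gave 3449, 4400 and 988 calls with 9 and 12 cytosolic and 2 and 4 mitochondrial synthetases called lower in X453_1 and X453_2, as without it. Leaving out each library gave 8 to 9 and 10 to 12 cytosolic and 2 and 3 to 4 mitochondrial synthetases called lower in X453_1 and X453_2, and median changes of the compartment ratio from -0.52 to -0.46 and from -0.46 to -0.40. FPKM without counts leaves counting error estimated only.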
